A study of Mus musculus with 23 samples.

Results

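The 9 genes described here handle retinoic acid (RA) or belong to its early responses: the RA-clearing oxidases Cyp26a1 and Cyp26b1, the retinaldehyde reductase Dhrs3, the cellular RA-binding proteins Crabp1 and Crabp2, the nuclear receptors Rarb and Rarg, the retinol transporter Stra6 and the germ cell gene Stra8. They were chosen by name, and all 9 were found by their mouse Ensembl identifiers among the 55573 genes that the count files list. RNA of mouse embryonic stem cells (ESCs) was counted by QuantSeq, which reads a tag near the 3′ end of each polyadenylated RNA, so a count does not grow with gene length. R1 ESCs, a widely used mouse line, were labelled SET-/- (knockout, KO; lines KO1 and KO2) or Wt (WT), with no further allele stated, and SET is a histone chaperone that also inhibits the phosphatase PP2A. The KO groups were a pair of RA samples (2 samples, 4 d of RA, each carrying the title KO1), 2 untreated KO1 and 2 untreated KO2 samples of set 2, and 2 KO1 and 2 KO2 samples of set 1. Their WT counterparts were 1 sample after 4 d of RA, 2 untreated samples of set 2 and 2 samples of set 1. KH2 ESCs, which carry an HA-tagged SETa transgene that doxycycline (Dox) switches on, were sampled with 1 μg/mL Dox for 24 h and without Dox, with 2 samples each. Every culture grew on mouse embryonic fibroblasts with serum and LIF per the labels. The RA dose, the carrier and whether the feeders and LIF stayed during RA are not given in the sources used here. No label says that samples of a group came from separate cultures, so p-values measure only how these samples varied, and that variation may be technical.

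In the RA pathway, retinol enters cells through STRA6, is oxidised through retinaldehyde to RA, and RA is carried by the CRABP proteins to its receptors. The receptors RARα, RARβ and RARγ pair with RXR on DNA and turn target genes on when RA binds. Several of the first targets, among them Cyp26a1 and Dhrs3, lower RA again, so their RNA is a usual readout of RA signalling. ESCs leave self-renewal in RA, and Stra8, needed for meiosis in the mouse germ line, is also switched on by RA in cultured ESCs.

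The 23 libraries formed 19 samples, because libraries that share a title code were summed. Assigned counts per sample ran from 3904924 to 5047363 after RA, from 2833064 to 10217040 in untreated set 2, from 806412 to 1445013 in set 1 and from 4848478 to 6472695 in KH2 cells. Levels below are CPM, counts per 1000000 assigned counts, scaled by TMM over the 19 samples. A gene was called where the adjusted p of edgeR's quasi-likelihood test, taken over all genes tested, was under 0.05. Set RNA was at 16.8 to 25.6 CPM in the 4 set 1 KO samples, against 943 and 979 CPM in WT. In set 2 it was at 273 to 569 CPM in the 4 untreated KO samples, against 1198 and 1454 CPM in WT, and at 288 and 193.5 CPM in KO after RA, against 580 CPM in WT after RA. Set RNA in set 2 KO samples thus stood below WT and above every set 1 KO sample. The 10 untreated libraries of set 2 also separated along their leading principal component, computed without the genes described here, into subgroups of 5 libraries that the labels do not name (A and B). Both subgroups hold KO and WT libraries, and the libraries of each double code (2a, 2b, 2d and 2e) fell into both.

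After 4 d of RA, all 9 genes changed in KO and 6 of the 9 changed in WT. The RA comparisons share samples: the same untreated and RA samples enter the effects within KO and WT, the contrast after RA and the difference of effects. In KO 7 rose (Cyp26a1, Cyp26b1, Dhrs3, Crabp2, Rarb, Stra6, Stra8) and 2 fell (Rarg, Crabp1), where 28.3% of the 14659 genes tested rose and 26.8% fell, 55.1% in all. Rarb could pass the count filter only through its KO samples after RA. In WT 5 rose (Cyp26a1, Cyp26b1, Dhrs3, Crabp2, Stra6) and 1 fell (Rarg), where 24.8% of all genes rose and 22.5% fell, 47.3% in all. The counts of falls are near or below this background. The median log2 fold change of the 9 genes was 2.89 in KO and 2.23 in WT, beside -0.01 and -0.03 over all genes. Only 1 WT sample had RA, and its spread was taken from the other groups of the fit.

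Markers of other cell types moved with RA in the same samples. The summed CPM of 24 fibroblast markers was 8591 and 9725 in KO after RA, against 991 to 1285 in untreated KO, and 8773 in WT after RA, against 848 and 916 in untreated WT. Led by Acta2 and Lgals1, which many cell types express, 18 of 21 tested fibroblast markers rose and 1 fell in KO. In WT 17 of 21 rose and 0 fell. Of the 24 markers only Lum was at 0 in WT after RA and in untreated WT. None was at 0 in KO after RA or in untreated KO2, and Lum and Fap were at 0 in untreated KO1. The 21 pluripotency markers summed to 1305 and 1326 CPM in KO after RA, against 3347 to 4049 CPM in untreated KO, and to 1107 CPM in WT after RA, against 5248 and 5858 CPM in untreated WT. The 15 endoderm markers summed to 1437 and 1578 CPM in KO after RA, against 636 to 726 CPM in untreated KO, and to 729 CPM in WT after RA, against 375 and 385 CPM in untreated WT; 9 of 12 tested rose and 1 fell in KO, and 4 rose and 1 fell in WT. Of 10 tested neural markers, 6 rose and 3 fell in KO, and 5 rose and 2 fell in WT. Of all genes, 28.3% rose and 26.8% fell in KO, and 24.8% and 22.5% in WT. The summed CPM of the 13 neural markers did not rise with these counts. Its mean was 444.6 in KO after RA, against 447.5 in untreated KO. The untreated WT samples had sums of 719.9 and 772.4 CPM, and WT after RA lay below both. The part of these shifts in the results on RA was not tested, and in bulk RNA fewer cells of a type cannot be told apart from less RNA per cell.

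**Figure D1:**
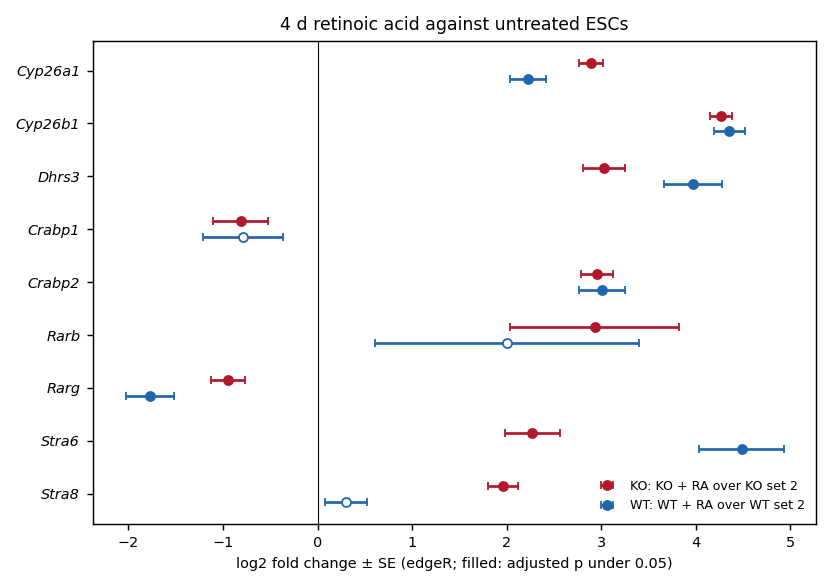
log2 fold change of the 9 genes after 4 d of RA, with KO (RA samples over untreated set 2 KO, red, upper point) and WT (blue, lower point); bars are the standard error of the edgeR fit and filled points have an adjusted p under 0.05. Cyp26b1 and Crabp2 lie close together in the 2 genotypes, while Stra8 was at 1.96 in KO and 0.30 in WT.

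CYP26B1 clears RA by oxidation, and its gene lies at GRCm38 chr6:84571414-84593908, minus strand. Cyp26b1 reached 1013 and 903 CPM in KO after RA, against 46.05, 54.65, 48.8 and 33.1 CPM in untreated KO (samples 2c to 2f). WT after RA had 892 CPM, against 39.3 and 44.8 CPM in untreated WT. The treated and untreated samples did not overlap in either genotype, and log2 fold changes were 4.27 ± 0.12 in KO (SE; edgeR adjusted p = 1.19e-20) and 4.36 ± 0.16 in WT (edgeR adjusted p = 2.73e-17). Outside set 2 the gene was low: 6.34 and 6.90 CPM in KH2 with Dox, 5.56 and 5.09 CPM in KH2 without Dox, and at most 2.58 CPM in set 1, where it had too few counts to be tested.

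Cyp26a1 (GRCm38 chr19:37697798-37701536, plus strand) encodes the related oxidase that is known as a direct RA target. It had 222 and 240.5 CPM in KO after RA, against 27.8, 29.5, 34.3 and 22.2 CPM in untreated KO, and 119 CPM in WT after RA, against 21.1 and 27.3 CPM in untreated WT. Both RA groups stood above all untreated samples, and both KO samples stood above the WT sample. The log2 fold change was 2.89 ± 0.13 in KO (edgeR adjusted p = 2.47e-16) and 2.23 ± 0.19 in WT (edgeR adjusted p = 2.01e-10). In order of level, the groups ran from KO with RA and WT with RA to untreated set 2, where KO2 samples spanned the KO1 and part of the WT range and both KO1 samples lay above both WT samples, then to set 1 KO lines at 7.75 to 15.0 CPM. KH2 cells and set 1 WT, between 0.807 and 2.88 CPM, formed the low end and overlapped.

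Promoter windows show where the genes differ in known RA receptor motifs. RAR-RXR pairs bind repeats of a hexamer. The hexamer AGGTCA with its variant AGTTCA, and GGGTCA with its variant GGTTCA, were searched on both strands from 250 bases before to 50 bases after each start site of RefSeq (GRCm38.p6). A window was given for 8 of the 9 genes, 14 windows in all; Crabp2 had none. At least 1 hexamer was found in 5 of these windows, and in 43.7% of 32851 windows of all genes, so a single hexamer is common. A direct repeat of 2 hexamers with 5 bases between them was found in 32 windows (0.0974%), and those of Cyp26a1 and Rarb were among them. The repeats with 1 or 2 bases between, present in 0.222% and 0.268% of windows, were in none of the 14. Capitals mark the hexamers, and a hexamer on the opposite strand appears as its reverse complement. The 4 windows are shown because Cyp26a1 and Rarb hold the repeat, Stra8 holds 2 separate hexamers and Cyp26b1 holds none.
Cyp26a1, chr19:37697558-37697857, plus strand: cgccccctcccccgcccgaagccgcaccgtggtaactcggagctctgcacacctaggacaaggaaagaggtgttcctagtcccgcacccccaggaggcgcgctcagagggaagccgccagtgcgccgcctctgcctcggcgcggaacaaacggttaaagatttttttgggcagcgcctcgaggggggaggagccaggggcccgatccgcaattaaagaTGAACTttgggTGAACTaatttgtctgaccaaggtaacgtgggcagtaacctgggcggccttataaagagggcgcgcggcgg
Rarb, chr14:16575427-16575726, minus strand: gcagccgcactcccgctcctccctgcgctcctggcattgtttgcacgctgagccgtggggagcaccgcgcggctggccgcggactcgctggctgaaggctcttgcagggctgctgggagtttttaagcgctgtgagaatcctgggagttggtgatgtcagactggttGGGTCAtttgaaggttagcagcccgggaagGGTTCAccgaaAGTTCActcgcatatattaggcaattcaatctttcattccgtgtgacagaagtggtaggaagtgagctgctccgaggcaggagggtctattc
Stra8, chr6:34920698-34920997, plus strand: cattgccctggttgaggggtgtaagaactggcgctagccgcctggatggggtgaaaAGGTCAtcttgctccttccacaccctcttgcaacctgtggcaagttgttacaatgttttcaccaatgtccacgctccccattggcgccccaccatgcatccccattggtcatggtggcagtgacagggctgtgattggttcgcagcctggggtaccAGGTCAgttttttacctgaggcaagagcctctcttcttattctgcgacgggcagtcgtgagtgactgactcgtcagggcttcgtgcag
Cyp26b1, chr6:84593761-84594060, minus strand: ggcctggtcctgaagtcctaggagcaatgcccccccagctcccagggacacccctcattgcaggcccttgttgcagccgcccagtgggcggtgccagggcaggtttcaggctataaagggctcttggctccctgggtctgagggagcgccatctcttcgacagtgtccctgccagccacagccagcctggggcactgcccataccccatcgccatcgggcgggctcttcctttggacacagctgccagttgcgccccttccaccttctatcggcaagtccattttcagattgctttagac
The Cyp26a1 repeat lies 32 to 16 bases before the start on the strand opposite to the gene, and the Rarb repeat 53 to 37 bases before the start on the gene's own strand. The starts of all 4 windows shown lie inside the Ensembl gene intervals. Cyp26b1, without a hexamer in this window, had a larger RA fold than Cyp26a1 in both genotypes; no match says only that these letters are absent here.

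**Figure D2:**
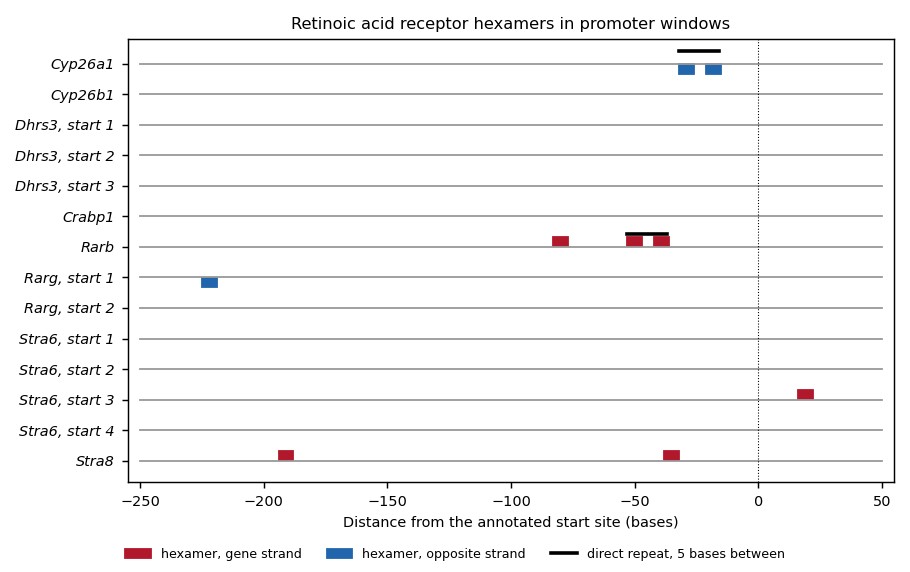
Receptor hexamers in the 14 promoter windows by distance from the annotated start site in bases (0, dotted line); red boxes are on the gene's strand, blue boxes on the opposite strand, and a black line marks a direct repeat with 5 bases between. Only the windows of Cyp26a1 and Rarb hold the repeat, and 9 windows hold no hexamer.

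Dhrs3 (GRCm38 chr4:144892827-144928209, plus strand) encodes a reductase that turns retinaldehyde back into retinol and so limits RA. Its level was 33.7 and 43.9 CPM in KO after RA, against 4.75, 5.07, 3.87 and 3.97 CPM in untreated KO. WT had 53.3 CPM after RA, against 4.23 and 2.92 CPM untreated. RA samples lay above all untreated samples, with log2 fold changes of 3.03 ± 0.22 in KO (edgeR adjusted p = 4.94e-12) and 3.97 ± 0.31 in WT (edgeR adjusted p = 2.64e-11). Untreated samples of set 2, set 1 KO and KH2 spanned 1.625 to 5.07 CPM. Within that span KO1 lay above KO2 in set 2 and KO2 above KO1 in set 1, with no overlap in either pair and no test of it, while set 1 WT had 0 and 0.827 CPM. The order in set 1 rests on 2 and 4 counts in KO1 and 4 and 6 counts in KO2.

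In KO, the genes of the cellular RA-binding proteins moved in opposite directions. Crabp2 (GRCm38 chr3:87948666-87953376), whose protein passes RA on to the receptors, had 80.4 and 95.4 CPM in KO after RA, against 8.04, 12.8, 9.40 and 11.25 CPM in untreated KO, and 70.7 CPM in WT after RA, against 7.15 and 9.30 CPM in untreated WT. The log2 fold changes were 2.95 ± 0.17 in KO (edgeR adjusted p = 3.07e-14) and 3.01 ± 0.24 in WT (edgeR adjusted p = 6.22e-11). Crabp1 (GRCm38 chr9:54764748-54773110), whose protein holds RA in the cytoplasm, had 21.2 and 7.05 CPM in KO after RA, against 18.3, 24.98, 25.25 and 22.8 CPM in untreated KO. WT had 13.9 CPM after RA, against 25.04 and 22.2 CPM untreated. Of the KO samples with RA, 2h lay within the untreated range and 2i below it. Crabp1 fell in KO (log2 fold change -0.81 ± 0.29, edgeR adjusted p = 0.024), and that value rests on which RA sample is kept: it was -1.80 without 2h (edgeR adjusted p = 5.91e-05) and -0.24 without 2i (edgeR adjusted p = 0.480). The call was also lost without sample 2d (0.0936) or 2e (0.055), with KO1 alone as the untreated group (0.071), and with either subgroup of untreated libraries alone. In WT its log2 fold change of -0.79 ± 0.42 was not called (edgeR adjusted p = 0.138).

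Rarb encodes RARβ, and its promoter is a textbook RA target; its RNA could barely be counted here. It had 9 and 11 counts (1.91 and 2.42 CPM) in KO after RA, against 1, 1, 2 and 0 counts in untreated KO, and 4 counts (1.09 CPM) in WT after RA, against 1 and 2 counts in untreated WT. It rose in KO (log2 fold change 2.93 ± 0.89, edgeR adjusted p = 0.0067; DESeq2 adjusted p = 0.0453). With so few counts it gave a value in only 6 of 14 alternatives, in which it was called. Only the KO samples with RA, where it was high, could carry it past the filter, so these calls are not separate support. It could not be tested without sample 2d, 2e, 2h or 2i, in 1 fit of all samples, with libraries not summed or with either subgroup alone. In WT the ratio of summed counts was 4.60 with an exact 95% counting interval from 0.778 to 31.4, and the change was not called (edgeR adjusted p = 0.246). All set 1 samples had 0 counts, which at 3 counts allows up to 2.08 to 3.72 CPM per sample, and KH2 samples had 1 to 4 counts. In the annotation used, Rarb (GRCm38 chr14:16430839-16819156, minus strand) shares 1793 of its 5265 exonic bases (34.1%) with Top2b on the plus strand, including all of its 3′-most 1000 exonic bases. A 3′ tag there overlaps exons of both genes, and with default settings the counting program does not assign a read that overlaps more than 1 gene. The files do not tell how many Rarb reads were lost in this way.

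Rarg (GRCm38 chr15:102234938-102257517, minus strand) encodes RARγ and went the other way. It had 31.0 and 25.6 CPM in KO after RA, against 32.2, 46.6, 53.3 and 75.1 CPM in untreated KO, and 28.8 CPM in WT after RA, against 81.0 and 109 CPM in untreated WT. The WT level after RA lay between those of the KO samples, and all 3 lay below all untreated samples of set 2. Rarg fell in both, with a log2 fold change of -0.94 ± 0.18 in KO (edgeR adjusted p = 7.39e-05) and -1.77 ± 0.25 in WT (edgeR adjusted p = 2.54e-06). Against untreated KO libraries of subgroup A alone the log2 fold change was -1.55, and against those of subgroup B alone -0.40.

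Stra6 (GRCm38 chr9:58063788-58153996, plus strand) encodes the membrane transporter for retinol. It had 19.5 and 15.4 CPM in KO after RA, against 3.655, 2.82, 4.61 and 1.985 CPM in untreated KO, and 26.9 CPM in WT after RA, against 1.63 and 0.973 CPM in untreated WT. All RA samples lay above all untreated samples. The log2 fold changes were 2.27 ± 0.29 in KO (edgeR adjusted p = 2.02e-07) and 4.48 ± 0.44 in WT (edgeR adjusted p = 3.16e-09). The untreated WT samples held only 5 and 9 counts of it.

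Stra8 (GRCm38 chr6:34920163-34939344, plus strand) is best known from germ cells entering meiosis. It had 134 and 163 CPM in KO after RA, against 38.4, 31.4, 43.3 and 27.5 CPM in untreated KO, so the KO groups did not overlap. WT had 101 CPM after RA, against 93.6 and 69.0 CPM untreated. Stra8 rose in KO (log2 fold change 1.96 ± 0.16, edgeR adjusted p = 5.6e-10) and was not called in WT (0.30 ± 0.22, edgeR adjusted p = 0.279). The WT value depended on the untreated libraries: they had 54.6 and 73.2 CPM in subgroup A and 106 and 108 CPM in subgroup B. Against subgroup A alone the WT log2 fold change was 0.68, and against subgroup B alone it was -0.18.

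**Figure D3:**
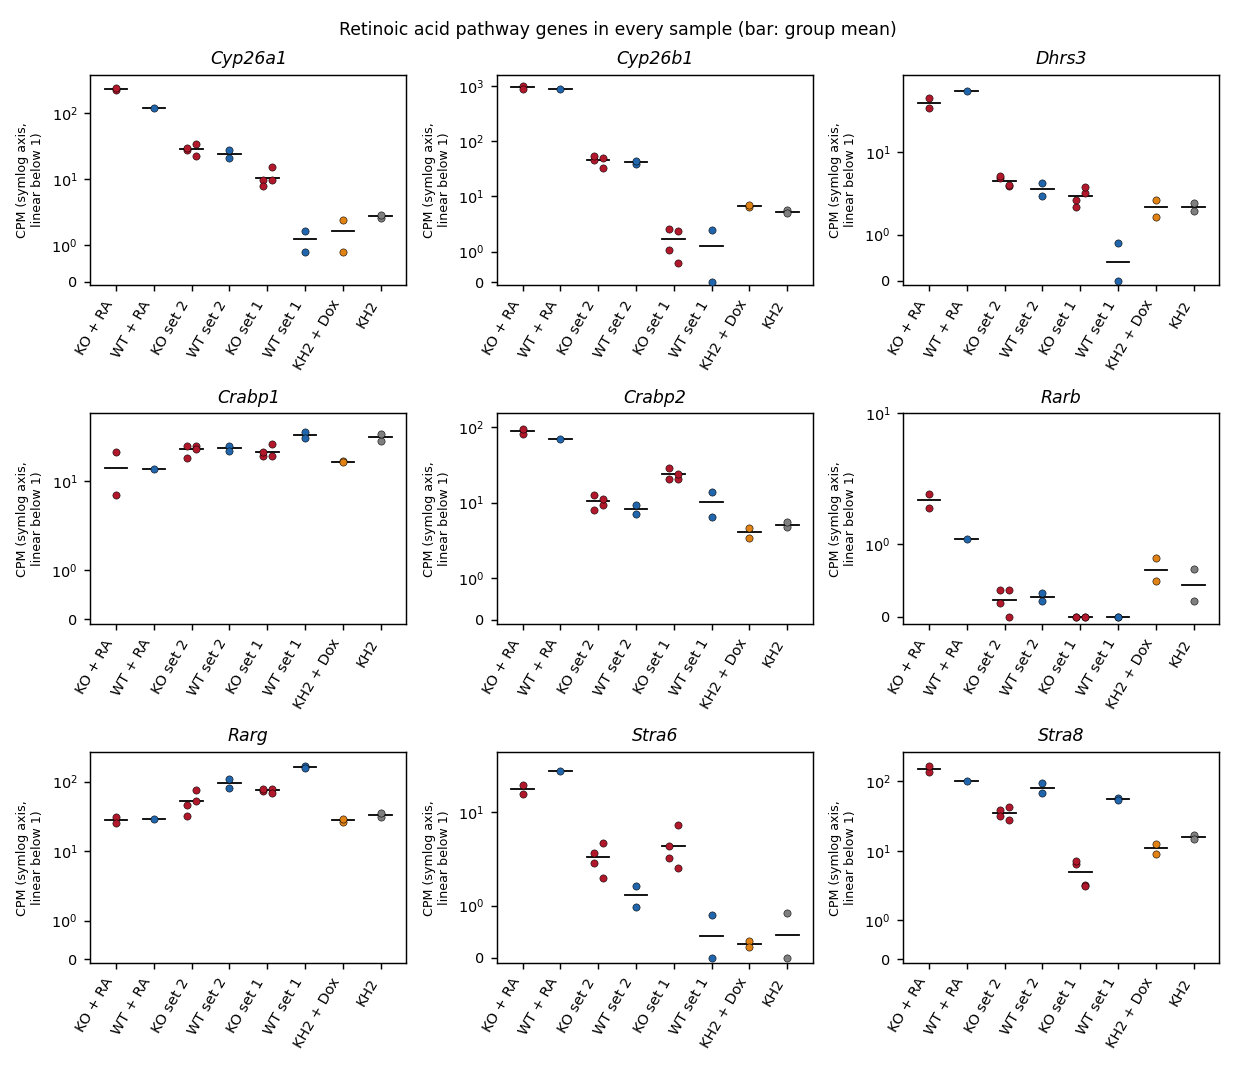
TMM-scaled CPM of each gene in all 19 samples (points) with group means (bars), on an axis that is linear below 1 CPM and logarithmic above; KO1 points stand left of KO2 points in the untreated KO columns. Cyp26a1, Cyp26b1, Dhrs3, Crabp2 and Stra6 are highest in the RA samples, while Stra8 of untreated KO lies below untreated WT in both sets.

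The difference between the RA effects in KO and in WT was called for 1 of the 9 genes, Stra8, where 0.348% of all 14659 genes were called with a larger and 0.744% with a smaller effect in KO, 1.09% in all. The RA effect on Stra8 was larger in KO by 1.66 ± 0.28 on the log2 scale (edgeR adjusted p = 0.00461). This sets KO against WT after RA (0.51, not called) beside KO against WT untreated (-1.15 in set 2, called), from the same samples. Within the subgroups, which were cut from these same libraries and so vary less, p-values are not given. The difference was 1.59 with untreated libraries of subgroup A alone and 1.93 with subgroup B alone. Without summing libraries, and with both subgroups together, it was 1.82 ± 0.42 and not called (edgeR adjusted p = 0.278). The difference for Stra6 was -2.21 ± 0.57 and was not called (edgeR adjusted p = 0.053). For Cyp26b1 and Crabp2 the differences were -0.09 (95% interval -0.49 to 0.31) and -0.06 (-0.66 to 0.54), and neither was called. WT after RA was 1 sample, so its own spread is not in these intervals and they cannot show that the effects are equal. The differences for Cyp26a1 (0.67), Rarg (0.83) and Dhrs3 (-0.94) were not called. In the same contrast, 4 of 21 pluripotency markers were called, all higher (Klf4 1.69, Utf1 1.44, Tbx3 0.96, Klf5 0.86), with a median of 0.84 beside -0.01 over all genes, as was 1 of 12 endoderm markers (Lama1 1.15). No fibroblast or neural marker was called by edgeR or DESeq2, with 7 of 21 and 2 of 10 at an unadjusted p under 0.05. Their part in the Stra8 difference was not tested.

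Set directly against each other after RA, KO and WT differed in 1 of the 9 genes, where 0.287% of all genes were higher and 0.109% lower in KO, 0.396% in all. Cyp26a1 was higher in KO by 0.91 ± 0.18 on the log2 scale (edgeR adjusted p = 0.0143). The call was lost without sample 2h (edgeR adjusted p = 0.0783), without sample 2i (0.278) and with every library as its own sample. Stra8 (0.51, 95% interval 0.07 to 0.95), Dhrs3 (-0.50, -0.99 to -0.01) and Stra6 (-0.66 ± 0.34) were not called. The intervals use a normal quantile and are narrower than the test, so that of Dhrs3 just leaves out 0 where the test does not. The interval for Cyp26b1 was -0.24 to 0.36 and that for Rarg -0.59 to 0.45. Endoderm markers moved in the same samples: 15 extraembryonic endoderm markers summed to 1437 and 1578 CPM in KO and 729 CPM in WT, and 6 of 12 tested were higher in KO. Their part in the Cyp26a1 difference was not tested.

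In untreated ESCs of both sets together, with set as a covariate, 6 genes could be tested and 3 were called, where 10.4% of 11515 genes were higher and 8.63% lower in KO, 19.1% in all. Rarg was lower in KO, with a log2 fold change of -0.97 ± 0.15 (edgeR adjusted p = 7.05e-05), and so was Stra8, with -1.84 ± 0.33 (edgeR adjusted p = 0.00224). Crabp2 was higher by 0.65 ± 0.22 (edgeR adjusted p = 0.0415), a call lost in 10 of 19 alternatives with an adjusted p of up to 0.192, among them those without sample 1a, 1b, 1c, 1e, 1f, 2a or 2d. With counts summed per line and set, Rarg remained called (edgeR adjusted p = 0.000732) and Stra8 did not (0.0741). Cyp26a1 (0.57), Cyp26b1 (0.16) and Crabp1 (-0.25) were not called, and Rarb, Dhrs3 and Stra6 were not tested for low counts. In the same samples, 16 of 21 pluripotency markers were lower in KO, and 8 of 12 endoderm and 7 of 18 fibroblast markers were higher; of 6 neural markers, 1 was higher and 4 were lower. The part of these in the results on KO was not tested.

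Set 1 showed the larger differences: 4 of 5 tested genes were called, where 7.19% of 9764 genes were higher and 5.10% lower in KO, 12.3% in all. Stra8 had 6.43, 7.10, 3.20 and 3.12 CPM in KO (1c to 1f), against 57.3 and 54.6 CPM in WT, with no overlap (log2 fold change -3.49 ± 0.32, edgeR adjusted p = 2.81e-06). Rarg had 74.0, 78.8, 79.3 and 69.3 CPM in KO, against 165 and 156 CPM in WT (-1.09 ± 0.17, edgeR adjusted p = 3.00e-04). Rarg and Stra8 stayed called when any 1 sample was left out. Among the KO samples, Stra8 was lower in both KO2 samples (1e and 1f) than in both KO1 samples, a difference that was not tested. Cyp26a1 had 9, 12, 12 and 24 counts (9.65, 7.75, 9.61 and 15.0 CPM) in KO, against 1 and 2 counts (0.807 and 1.65 CPM) in WT. It passed the count filter only through KO, so its place among the tested genes already needed KO to be high. All 4 KO samples lay above both WT samples, the ratio of summed counts was 8.76 with an exact 95% counting interval from 2.85 to 43.8, and the call (edgeR adjusted p = 0.00496) was lost without sample 1a (0.0698). Crabp2 had 28.95, 20.7, 20.8 and 24.35 CPM in KO, against 6.46 and 14.1 CPM in WT (1.19 ± 0.35, edgeR adjusted p = 0.0346), and its call was lost without 1a, 1c or 1e and with DESeq2's Wald test (adjusted p = 0.0878).

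Genes too low for the test in set 1 are given as counts. Stra6 had 4, 5, 9 and 4 counts in KO, against 0 and 1 in WT, a ratio of 10.1 with an exact 95% counting interval from 1.64 to 419. Dhrs3 had 2, 4, 4 and 6 counts in KO, against 0 and 1 in WT, a ratio of 7.38 (1.15 to 309). For Cyp26b1 the ratio was 1.38 (0.345 to 7.95), which includes no difference. These intervals cover counting error only. Crabp1 had 19.3, 21.3, 26.4 and 19.35 CPM in KO, against 36.3 and 30.6 CPM in WT; the samples did not overlap, and the change of -0.63 ± 0.25 was not called (edgeR adjusted p = 0.126).

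**Figure D4:**
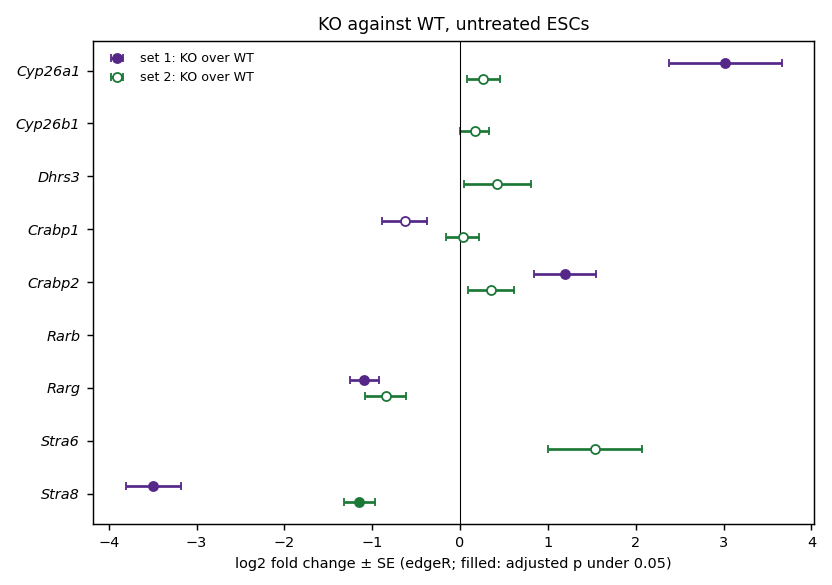
log2 fold change of KO over WT in untreated ESCs of set 1 (purple, upper point) and set 2 (green, lower point), with the standard error of the edgeR fit; filled points have an adjusted p under 0.05 and genes without a point were not tested. Stra8 was at -3.49 in set 1 and -1.15 in set 2, and Cyp26a1 at 3.02 and 0.26.

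Set 2 had 1 gene called of 8 tested, where 5.64% of 12681 genes were higher and 3.55% lower in KO, 9.19% in all. Stra8 had 38.4, 31.4, 43.3 and 27.5 CPM in KO, against 93.6 and 69.0 CPM in WT, with no overlap (log2 fold change -1.15 ± 0.17, edgeR adjusted p = 3.33e-04), and it stayed called in all 15 alternatives run for it. By library, Stra8 ran from 27.4 to 29.8 CPM in KO and was 54.6 and 73.2 CPM in WT in subgroup A, and from 32.3 to 47.1 CPM in KO and at 106 and 108 CPM in WT in subgroup B. Rarg missed the threshold (-0.85 ± 0.24, edgeR adjusted p = 0.0508) although all KO samples lay below both WT samples. Its KO libraries split by subgroup: 68.7 to 97.3 CPM in KO, against 83.0 and 112 CPM in WT, in subgroup A, and 31.2 to 37.6 CPM in KO, against 75.3 and 81.5 CPM in WT, in subgroup B. Within subgroup A the KO effect on Rarg was -0.30, within subgroup B it was -1.24, and with subgroup as a covariate it was -0.74. Rarg passed the threshold without sample 2c (edgeR adjusted p = 0.0193) or 2f (4.81e-06). Stra6 had 3.655, 2.82, 4.61 and 1.985 CPM in KO, against 1.63 and 0.973 CPM in WT (1.53 ± 0.53, edgeR adjusted p = 0.0779). The other genes were not called, and their 95% intervals of the log2 fold change were -0.10 to 0.63 for Cyp26a1, -0.16 to 0.49 for Cyp26b1, -0.34 to 0.39 for Crabp1, -0.16 to 0.86 for Crabp2 and -0.32 to 1.17 for Dhrs3.

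**Figure D5:**
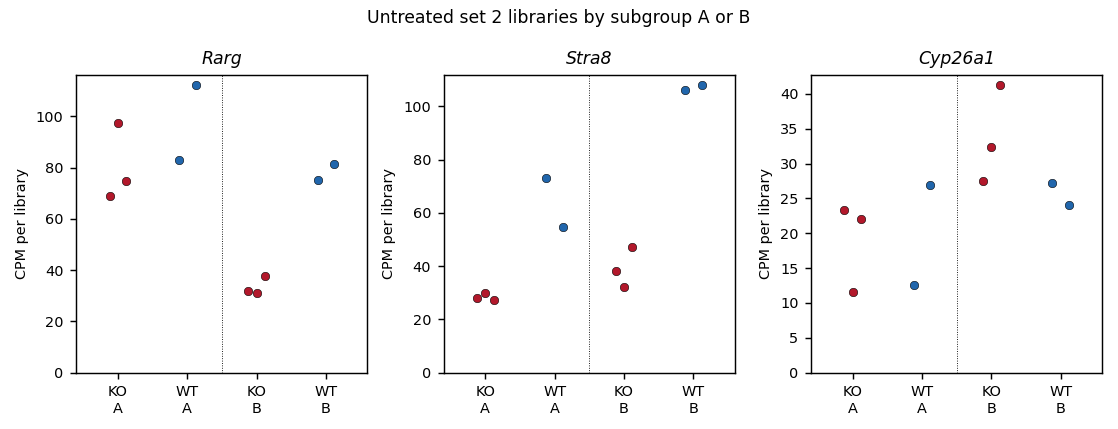
TMM-scaled CPM of Rarg, Stra8 and Cyp26a1 in each of the 10 untreated set 2 libraries (points), KO in red and WT in blue, by library subgroup A or B. Stra8 is lower in KO in both subgroups, while Rarg ranges of KO and WT overlap in A and stand apart in B.

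Between set 2 and set 1, the KO effects of 2 of 7 tested genes differed by the interaction test, where 0.159% of 11950 genes had a higher and 0.669% a lower effect in set 2, 0.828% in all. For Stra8 the effect in set 2 was less negative than in set 1 by 2.35 ± 0.38 on the log2 scale (edgeR adjusted p = 0.00146), a call held in all 17 alternatives. For Cyp26a1 the set 2 minus set 1 difference was -2.82 ± 0.67 (edgeR adjusted p = 0.037), a call lost in 10 of 17 alternatives with an adjusted p between 0.0551 and 0.349 where it was lost, among them those without sample 1a, 1b, 1c, 1e, 1f, 2a, 2b or 2d. The set 1 effect on Cyp26a1 rests on 3 WT counts. Rarg (0.24, 95% interval -0.35 to 0.83) was not called. The sets also differ in depth and in how much Set RNA the KO libraries hold, which cannot be told apart here. Markers moved in this contrast as well: 3 of 18 fibroblast markers were called lower (Acta2 -4.22, Col1a1 -2.14, Lgals1 -1.57), with a median of -1.59 beside -0.02 over all genes, as were 1 of 12 endoderm markers (Col4a2 -1.21) and 1 of 6 neural markers (Nes -2.17). The 24 fibroblast markers summed to 991 to 1285 CPM in KO and 848 and 916 CPM in WT of set 2, and to 699 to 1001 CPM in KO and 363 and 510 CPM in WT of set 1. No pluripotency marker was called by edgeR or DESeq2, with 8 of 21 at an unadjusted p under 0.05, and the part of the markers in the Stra8 and Cyp26a1 differences was not tested.

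In KH2 cells, Dox changed 1 of 7 tested genes, where 0.896% of 12723 genes were higher and 0.904% lower with Dox, 1.80% in all. Crabp1 had 16.9 and 16.4 CPM with Dox, against 28.7 and 33.6 CPM without (log2 fold change -0.89 ± 0.20, edgeR adjusted p = 0.0194), and the call was lost without either sample that had no Dox (edgeR adjusted p = 0.0925 and 0.383) and in 1 fit of all samples (0.133). Stra8 had 9.10 and 12.6 CPM with Dox, against 17.1 and 15.0 CPM without, which did not overlap and was not called (-0.58, 95% interval -1.06 to -0.10, edgeR adjusted p = 0.247). Rarg had 26.6 and 28.8 CPM with Dox, against 31.5 and 35.2 CPM without (-0.26, edgeR adjusted p = 0.522). Set itself had 1267 and 1126 CPM with Dox, against 1020 and 964 CPM without, and was not called (edgeR adjusted p = 0.175). Whether transgene RNA, read by a tag near its 3′ end, is counted as Set was not tested. The 24 fibroblast markers summed to 1495 and 1721 CPM with Dox and 2141 and 2279 CPM without, and their part in the Crabp1 result was not tested.

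Other genes of the pathway were taken from lists chosen with earlier results of these data known. Of 13 tested genes of retinoid uptake, storage and RA synthesis, 4 rose and 4 fell after RA in KO, and 4 rose and 2 fell in WT, with medians of -0.09 and 0.03 on the log2 scale (all genes, -0.01 and -0.03). Of all genes, 28.3% rose and 26.8% fell in KO, and 24.8% rose and 22.5% fell in WT. Rdh10, which oxidises retinol to retinaldehyde, rose by 2.41 in KO and 3.05 in WT. Rbp7, a retinol-binding protein gene, had log2 fold changes of -4.17 in KO and -2.90 in WT, and Adh5 of -0.69 and -0.62. Rdh10 was also higher in untreated KO of set 1 (2.22) and of set 2 (0.91), and Rbp7 in set 2 (1.03). In all, the list held 2 calls of 8 tested in set 1 and 2 of 9 in set 2, all higher. Among all genes, 7.19% were called higher in KO in set 1 and 5.64% in set 2.

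Among 17 tested receptors, partners and cofactors, 4 rose and 5 fell after RA in KO, and 5 rose and 3 fell in WT. These counts lie near those of all genes, of which 28.3% rose and 26.8% fell in KO, and 24.8% and 22.5% in WT. Nrip1, a corepressor gene that RA is known to induce, rose by 2.53 in KO and 2.65 in WT, and the coactivator gene Ncoa2 by 1.07 and 1.11. Ncoa3, another coactivator gene, had log2 fold changes of -1.07 in KO and -1.38 in WT. Rxrg fell in KO (-3.79), and Fabp5, whose protein carries RA to PPARδ, rose in WT (0.98). Each was named only where among the 4 smallest adjusted p, and its fold change in the other genotype is not given here. None of the 17 was called in the RA by genotype difference, where 1.09% of all genes were. In set 1, Fabp5 was higher in KO (0.94), and Rara (-0.84), Ncoa3 (-0.76) and Tbl1xr1 (-0.63) were lower, 4 calls of 16 tested. There 12.3% of all genes were called. In set 2 none of 17 was called by edgeR or by DESeq2, and 3 had an unadjusted p under 0.05. By edgeR, 9.19% of all genes were called in set 2.

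Of 24 tested other RA target genes, 20 rose and 1 fell after RA in KO, and 19 rose and 1 fell in WT, with medians of 2.56 and 2.91. Shares of all genes that rose and fell were 28.3% and 26.8% in KO, and 24.8% and 22.5% in WT. Tshz1 rose by 3.56 in KO and 4.59 in WT, and Hoxb4 by 3.36 and 4.21. Meis1 rose by 3.49 in KO and Nr2f1 by 3.71 in WT, each named only where among the 4 smallest adjusted p. Their fold changes in the other genotype are not given here, and Meis1 was not called in the RA by genotype difference. The RA effect was smaller in KO for Hoxd4 (-1.67), Nr2f1 (-1.14) and Tshz1 (-1.03), 3 of 24 tested, beside 0.744% of all genes. After RA, Nr2f1 was lower in KO (94.1 CPM in KO and 193 CPM in WT), as was Tshz1 (182 and 301 CPM), and Lamb1 was higher (867 and 444 CPM). In untreated ESCs, Lamb1 (1.44), Nr6a1 (1.49) and Zfp703 (2.37) were among 4 of 8 tested that were higher in KO in set 1, as were Lamb1 (0.94), Nr6a1 (0.42), Gata6 (0.65) and Hoxd4 (1.12) in set 2, 4 of 20 tested. Of all genes, 7.19% were higher in KO in set 1 and 5.64% in set 2. In KH2 cells, Nr2f2 (-0.68) and Meis2 (-0.89) were lower with Dox, 2 of 14 tested, beside 0.904% of all genes.

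Stra8 can be set beside 17 tested germ cell and meiosis genes, of which 5 rose and 8 fell after RA in KO, and 2 rose and 6 fell in WT. For all genes the shares that rose and fell were 28.3% and 26.8% in KO, and 24.8% and 22.5% in WT. Rec8, a meiotic cohesin gene, rose by 3.24 in KO and 3.15 in WT, and the germ cell helicase gene Ddx4 by 1.83 and 1.40. Tfap2c had log2 fold changes of -2.81 in KO and -2.28 in WT, and Prdm1 of -3.10 and -2.10. The RNA-binding protein gene Dazl, like Stra8, was lower in untreated KO in both sets (-1.26 in set 1 and -0.81 in set 2). It was the only call of 9 tested in set 1, while in set 2 Prdm1 (0.85), Tfap2c (0.54) and Tex101 (2.02) were higher. Among all genes, 12.3% were called in set 1 and 9.19% in set 2. After RA, Taf7l was higher in KO (22.7 CPM in KO and 7.88 CPM in WT), 1 of 17 tested, beside 0.287% of all genes.

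The lists on uptake and on receptors held no call by edgeR or by DESeq2 in KO against WT after RA, in the RA by genotype difference, in the difference between sets or with Dox. By edgeR, 0.396%, 1.09%, 0.828% and 1.80% of all genes were called in these contrasts. At an unadjusted p under 0.05 the lists held 1, 2, 2 and 1 genes on uptake and 1, 2, 1 and 2 on receptors. The germ cell list held none by either tool in the RA by genotype difference, between the sets or with Dox, with 4, 0 and 3 genes at an unadjusted p under 0.05. Between the sets, Nr6a1 was called (-1.07).

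Profiles over the 10 group means were compared among 10279 genes as the mean absolute difference of centred log2(CPM + 1), where a smaller value is more alike; the points share libraries and depth, and the likeness is a description. Dhrs3 had Gpc6 (0.22) and Creb3 (0.23) among its 3 most similar genes. Crabp2 was most like Tead3 (0.25), Tgfbr2 and Col2a1, and Stra6 most like Nedd9 (0.19), Vgll3 and Serpinb9b. Rarg was most like G3bp2 (0.19), Map1a and Dppa2, and Crabp1 most like Rttn (0.11), Nln and Riok2. The other genes had less close neighbours: Cmtm3 (0.42), Parm1 and Pdzrn3 for Cyp26a1, Dlk1 (0.53), Smoc2 and Hoxa5 for Cyp26b1, and Irf5 (0.43), Npr3 and Prrx2 for Stra8.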

How the data were processed

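RNA of 23 libraries was read by QuantSeq 3′ sequencing. The deposited values are raw counts per gene: the file headers name featureCounts 1.6.0 and the Ensembl release 97 annotation. The submitters' processing notes name STAR 2.5.4b, Subread 2.0.0 and the builds GRCm38 and mm10. The default settings of featureCounts ignore strand and leave out reads that overlap several genes. From these counts, libraries with a shared title code were added up, which gave 19 samples. Differences were tested with the quasi-likelihood F test of edgeR 4.0.16 (R 4.3.3), using TMM scaling, robust dispersions and filterByExpr with a minimum count of 10 and a minimum total of 15. P-values were adjusted by Benjamini-Hochberg over all genes tested, at 0.05. A standard error is the absolute log2 fold change over the root of F, and an interval spans 1.96 standard errors on each side. This normal quantile makes the intervals narrower than the F test would. The contrasts with RA share a single fit of the set 2 samples, where the mean of KO1 and KO2 stood for untreated KO. Untreated R1 samples were fitted with set as a covariate, with an interaction, and within each set; KH2 samples were fitted alone. At these depths, 3 counts equal 0.294 to 3.72 CPM in a sample. Ratios of few counts carry exact 95% intervals, which like that floor cover counting error only.

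The members and lists were chosen with earlier results of these data known. Besides the members, up to 4 called genes with the smallest adjusted p were named per list and comparison. Markers of other cell types are given by counts and sums. Lum, Fap and the levels of Acta2 and Lgals1 were named after their values were seen. Of each member reaching a group mean of 10 CPM, the 3 genes with the most similar profile were named. Alternatives were the size factors and Wald test of DESeq2 1.42.0, no low-count filter, all samples in 1 fit, libraries not summed, sums per line and set, KO1 alone as untreated KO, the replicate number as a block, and leaving out each sample. Library subgroups were chosen after seeing the data, by splitting the untreated set 2 libraries at the widest gap on the first principal component (33.8% of variance) of 11307 genes centred by group. The split lowers the spread among libraries, so calls that use the subgroups are not separate support. The code of the fits was run on a single simulated draw per comparison with known changes. That draw had an equal dispersion for all genes and no library subgroups, so it does not test how well the fits suit these data. A few genes selected by these rules are not reported here. Promoter sequences are those of RefSeq.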

Additional observations from a re-analysis of the deposited data

Results flagged for a closer look

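The effect of RA on Stra8 differed between genotypes by the test of the difference: it was larger in KO than in WT by 1.66 on the log2 scale (edgeR adjusted p = 0.00461), with both KO samples after RA above all 4 untreated KO samples. That call was lost with libraries not summed (edgeR adjusted p = 0.278). KO against WT was 0.51 after RA and not called, and -1.15 in untreated set 2 and called. The KO effect on Stra8 differed between the sets by 2.35 (edgeR adjusted p = 0.00146), being more negative in set 1. That on Cyp26a1 differed by -2.82 (edgeR adjusted p = 0.037), a call lost in 10 of 17 alternatives. In set 1, KO lay above a WT level that rests on 3 counts. Mean Cyp26a1 was 10.5 CPM in KO and 1.23 CPM in WT of set 1, and 28.4 and 24.2 CPM in set 2. No sample stood far from the others in the 17 groups of 4 values that could be checked.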

How the results depend on the processing

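Called results of the 9 members kept their direction in every alternative that gave a value, and were called in 314 cases and not in 40; Rarb for RA in KO gave a value in 6 of 14. Of the results not called, 435 stayed so without a change of sign, 20 passed the threshold and 30 changed sign. The number of members called moved in KO against WT after RA from 1 to 0 with libraries not summed; in the RA by genotype difference to 2 with no low-count filter, 0 with libraries not summed, 2 with untreated subgroup A alone and 3 with B alone; over both sets from 3 to 6 in 1 fit of all samples; in set 2 from 1 to 2 with DESeq2 size factors, no filter, the subgroup covariate or subgroup B alone and 3 in 1 fit of all samples; between the sets from 2 to 1 with DESeq2's Wald test or libraries not summed; and with Dox from 1 to 0 in 1 fit of all samples. Leaving out 1 sample gave 0 in KO against WT after RA, 1 to 2 in the RA by genotype difference, 2 to 4 over both sets, 2 to 4 in set 1, 1 to 3 in set 2, 1 to 2 between the sets, 0 to 1 with Dox, 7 to 9 for RA in KO and 6 for RA in WT.

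Changes of sign were all in results that were not called. Crabp1 in KO against WT after RA was 0.01 with no filter and 0.01 in 1 fit of all samples. In the RA by genotype difference, Crabp2 was 0.02 and Cyp26b1 0.03 with libraries not summed, Cyp26b1 was 0.01 with untreated subgroup A alone and 0.04 with B alone, Crabp2 was 0.37 with B alone, and Crabp1 was 0.04 with KO1 alone as the untreated group. Stra8 for RA in WT was -0.18 with untreated subgroup B alone, Cyp26a1 in set 2 was -0.12 in subgroup A and Crabp2 -0.07 in subgroup B. The cause was not tested.

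Leaving out 1 sample turned the sign of uncalled results over these ranges: after RA, Crabp1 from -1 to 0.57, Cyp26b1 from -0.01 to 0.14 and Rarg from -0.20 to 0.06; in the RA by genotype difference, Crabp2 from -0.27 to 0.16, Cyp26b1 from -0.19 to 0.08 and Crabp1 from -1.02 to 0.55; in set 2, Crabp1 from -0.12 to 0.13; between the sets, Cyp26b1 from -5.41 to 0.70; with Dox, Dhrs3 from -0.41 to 0.28 (without the first or second sample that had no Dox, -0.21 and 0.12).

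Numbers of all genes called moved by more than 1.5 times in KO against WT after RA (58; 94 with no filter, 8 with libraries not summed), the RA by genotype difference (160; 98 with DESeq2's Wald test, 284 with no filter, 2 with libraries not summed, 336 and 380 with subgroup A or B alone), both sets (2194; 1426 with counts summed per line and set), set 1 (1200; 2044 in 1 fit of all samples), set 2 (1165; 759 with libraries not summed, 434 in subgroup A), between the sets (99; 171 with no filter, 207 in 1 fit of all samples) and with Dox (229; 127 with DESeq2's Wald test, 33 in 1 fit of all samples). With the replicate number as a block, although same-numbered samples did not deviate together (correlations of 0.05, -0.14 and -0.09 in set 1 and 0.04 in KH2), 1738 genes and 3 members were called over both sets, 1032 and 3 in set 1 (Crabp2 was lost), 454 and 1 in set 2, and 724 and 1 with Dox. Leaving out 1 sample gave 15 to 34 genes after RA, 27 to 388 in the RA by genotype difference, 570 (without 1a) to 1388 in set 1, 195 (without 2b) to 2335 (without 2f) in set 2, 22 (without 1a) to 127 between the sets and 6 (without the second sample that had no Dox) to 234 with Dox. In set 1, 4 of the 9 genes had too few counts to be tested.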
